A study of Mus musculus with 6 samples.

Results

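The genes described here are the receptors and ligands of the epidermal growth factor (EGF) family that could be followed in mouse lung cancer cells grown with or without mesenchymal stem cells. The set holds 9 of the 18182 genes in the deposited gene tables, matched by symbol, and consists of 3 receptors (Egfr, Erbb2 and Erbb3) and 6 ligands (Areg, Ereg, Hbegf, Tgfa, Btc and Nrg1). The members were selected on their measured difference in expression between these same groups, so that their levels and differences are given as a description, with no p-value. Where it is said below that a member was past the threshold of the fit across all genes, this rests on the values that chose it and supports nothing.

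The tumour cells belonged to Lewis lung carcinoma (LLC), a line derived from a mouse lung tumour, and had been labelled with red fluorescent protein (LLC-RFP). They were injected under the skin of wild type C57BL/6 mice, either alone (LLC alone, 3 libraries) or together with bone marrow-derived mesenchymal stem cells (LLC with BMSCs, 3 libraries), and fluorescent cells were sorted from the primary cancer sites by flow cytometry for RNA sequencing. The labels give no age for these mice and do not say whether each library came from a separate mouse, so that spreads and p-values cover the difference between libraries, which may be technical. For its tumour growth experiments the paper names female C57BL/6 mice aged 6 weeks, and BMSCs of mouse origin. All 6 libraries came from 1 tumour line, and the controls carried the same fluorescent label. The authors deposited an estimated count of fragments and an FPKM value (counted fragments divided by transcript length and library total) for each gene, and the counts on genes summed to 33476347 to 46189113 in a library. FPKM is used below wherever levels of different genes are set side by side.

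Receptors of this family sit in the cell membrane and carry a kinase inside the cell. A ligand joins receptors into a pair, which then phosphorylate each other and signal through the Ras-MAPK and PI3K-Akt routes. Egfr binds several of the ligands directly, Erbb2 has no known ligand of its own and serves as the partner of the others, and Erbb3 has a weak kinase but many docking sites for PI3K. Most ligands are made as membrane proteins and are released by a protease, of which Adam17 is the best known. In lung cancer the family is known for activating changes in Egfr and Erbb2, and its ligands for signalling between tumour cells and between tumour and stroma.

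The ligands share a fold of 6 cysteines, the EGF-like domain, with which they bind the receptor. A search of the GENCODE M21 coding sequences for 6 cysteine codons at this spacing (7 codons, then 4 to 5, 10 to 13, 1 and 8 codons between them) found the stretch once in each of the 6 ligands and in 57 of 21793 genes in all (0.262%). It spanned 108 bases (36 codons) in Areg, Ereg, Hbegf, Tgfa and Btc and 120 bases (40 codons) in Nrg1. The stretches are shown, 5′ to 3′ with the cysteine codons in capitals, for Areg, Ereg and Btc, neighbouring genes whose levels went in different directions, and for Nrg1, which has the wider spacing.
Areg: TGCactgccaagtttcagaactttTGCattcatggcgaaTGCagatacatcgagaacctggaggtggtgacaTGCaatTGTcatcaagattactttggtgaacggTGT
Ereg: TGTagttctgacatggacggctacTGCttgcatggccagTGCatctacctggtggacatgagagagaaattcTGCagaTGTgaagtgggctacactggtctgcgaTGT
Btc: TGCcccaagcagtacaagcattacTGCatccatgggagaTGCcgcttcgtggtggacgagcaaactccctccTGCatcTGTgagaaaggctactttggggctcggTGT
Nrg1: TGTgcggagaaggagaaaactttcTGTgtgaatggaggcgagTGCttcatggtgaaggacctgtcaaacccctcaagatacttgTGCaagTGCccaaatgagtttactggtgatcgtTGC

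Egfr was listed with 2 transcripts that encode different proteins. NM_207655 is 5983 bases long and encodes the full receptor (3630 coding bases, 1210 codons), while NM_007912 is 2678 bases long and encodes a shorter form of 655 codons (1965 coding bases). By the matching GENCODE M21 transcripts, the first 1926 coding bases were the same in both, and 1704 coding bases followed in the first and 39 in the second. The last 30 shared bases are shown in lower case and the first 39 bases after them in capitals, because the 2 coding sequences part at this point.
NM_207655: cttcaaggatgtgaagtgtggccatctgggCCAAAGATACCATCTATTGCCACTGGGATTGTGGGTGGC
NM_007912: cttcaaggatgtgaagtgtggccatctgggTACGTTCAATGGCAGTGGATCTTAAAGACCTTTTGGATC

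Upstream sequence was found in the RefSeq promoter table (build GRCm38.p6, 250 bases before to 50 after each start site) for 5 of the 9 members, namely Egfr, Erbb2, Areg, Tgfa and Btc. The 250 bases before the start site are shown for Areg and Egfr, the tested ligand and the tested receptor whose levels differed most between the groups, on the plus strand (chr5:91139349-91139598 and chr11:16751953-16752202). Capitals mark matches, on either strand, to 6 motifs that were searched: the cAMP response element TGACGTCA, TATAAA, the AP-1 motif TGANTCA, the STAT motif TTCNNNGAA, the GC box GGGCGG and CCAAT.
Areg: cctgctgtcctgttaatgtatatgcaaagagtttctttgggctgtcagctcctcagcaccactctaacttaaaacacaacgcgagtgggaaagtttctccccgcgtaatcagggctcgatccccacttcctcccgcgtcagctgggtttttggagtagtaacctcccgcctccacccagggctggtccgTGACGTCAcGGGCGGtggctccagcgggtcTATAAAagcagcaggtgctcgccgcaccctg
Egfr: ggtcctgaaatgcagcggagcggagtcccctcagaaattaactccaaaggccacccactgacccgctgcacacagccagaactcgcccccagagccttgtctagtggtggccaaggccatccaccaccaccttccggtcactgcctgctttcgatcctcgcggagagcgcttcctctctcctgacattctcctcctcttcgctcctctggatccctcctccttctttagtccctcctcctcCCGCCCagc

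The Areg window held TGACGTCA from position -61, where -1 is the base before the start site, a GC box from -52 and TATAAA from -31, and a further GC box on the other strand began at base 38 after the start. Of 32851 mouse promoters of this length, TGACGTCA was present in 1.79%, TATAAA in 13.6% and the GC box in 35.7%. The Egfr window held 1 GC box on the other strand from -9. Tgfa had GC boxes from -126 and -15, Erbb2 had CCAAT from -41 (present in 37.4% of promoters), and Btc had none of the 6. Neither the AP-1 motif (7.81% of promoters) nor the STAT motif (8.30%) was found in these 5 windows. The matches are letters in a window and were not tested as sites.

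Across the members, LLC with BMSCs had more Egfr, Erbb3, Hbegf and Ereg transcript than LLC alone, and the FPKM of Areg, the most abundant ligand, was 2.09-fold lower. Of the 9 members, 7 passed edgeR's filter on low counts; Tgfa and Nrg1 did not. In the fit across all 13353 tested genes, 5 of the 7 were past an adjusted p of 0.05 and higher in LLC with BMSCs, against 31.5% of all tested genes, and 2 were past it and lower, against 31.3%. In either direction 62.9% of all tested genes were past the threshold, and in 70.6% the FPKM values of the groups did not overlap. Their median log2 fold change (LLC with BMSCs minus LLC alone, as in all that follow) was 0.39 over the 7 members and 0.01 over all tested genes, where the median size without sign was 0.38. In sorted cells measured in bulk, fewer cells with a transcript and less transcript per cell cannot be told apart.

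**Figure D1:**
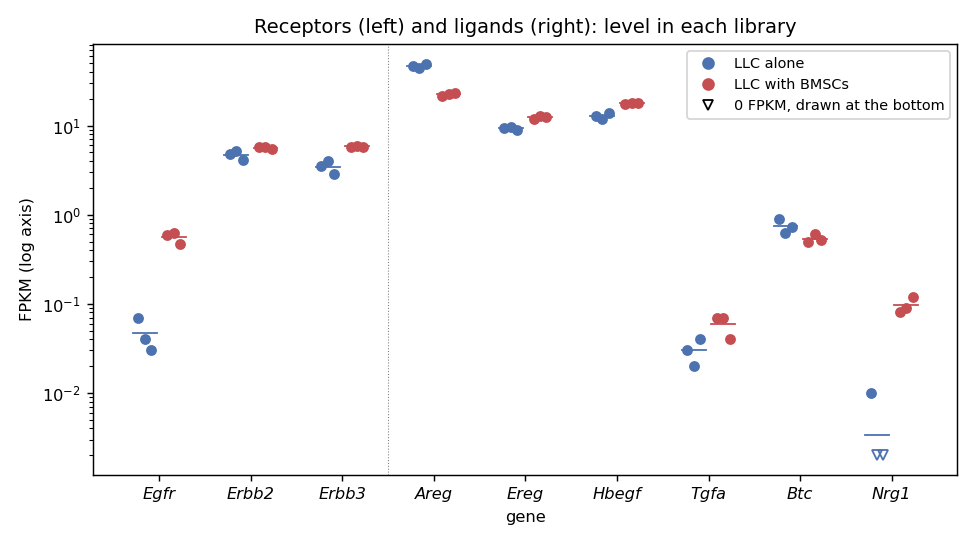
FPKM of each receptor (left of the dotted line) and ligand (right) in the 3 libraries of LLC alone (blue) and the 3 of LLC with BMSCs (red), on a log axis; horizontal lines are group means and open triangles are libraries listed at 0, drawn at the bottom. The Egfr points lie at 0.03 to 0.07 FPKM in LLC alone and at 0.47 to 0.63 in LLC with BMSCs, while Areg is the highest gene in every library.

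Egfr, the receptor for EGF, Areg and Tgfa, was listed at 0.07, 0.04 and 0.03 FPKM in LLC alone replicates 1 to 3 and at 0.59, 0.63 and 0.47 FPKM in LLC with BMSCs. The groups did not overlap, and every library of LLC with BMSCs was several-fold above every library of LLC alone. These values rest on 19, 8 and 8 counts against 150, 152 and 117, so that the level was low in both groups. The mean was 0.0467 ± 0.0208 FPKM (SD, n = 3) in LLC alone and 0.563 ± 0.0833 in LLC with BMSCs, and the log2 fold change was 3.48 ± 0.27 (SE). A difference of at least this size, in either direction, was present in 2.96% of tested genes. In the order of all listed genes, Egfr lay between the 20.7 and 25.8 percentiles of a library in LLC alone and between 35.8 and 37.6 in LLC with BMSCs.

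Nearly all of the Egfr signal was assigned to the full-length form. NM_207655 was listed at 0.07, 0.04 and 0.03 FPKM in LLC alone and at 0.55, 0.55 and 0.44 in LLC with BMSCs. The shorter NM_007912 was listed at 0 in all LLC alone libraries and at 0.03, 0.08 and 0.03 FPKM in LLC with BMSCs, from 3.95, 9.35 and 3.67 estimated counts. The counts of the short form are fractional because most of its sequence is shared with the long one, and its level is at the edge of what the depth can show.

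Egfr and Nrg1 were close to 0 in LLC alone, as were some markers of other cell types that stood higher in LLC with BMSCs. Of 10 mesenchymal stromal markers, 8 were tested and all 8 were past the threshold and higher, against 31.5% of all tested genes. The list summed to 271 to 326 CPM (counts scaled to the library total with edgeR's TMM factors) in LLC alone and to 670 to 702 CPM in LLC with BMSCs. Dcn, a matrix proteoglycan made by stromal cells, was at 0.1, 0.13 and 0.1 FPKM against 6.22, 6.56 and 6.14, and Col1a1, a collagen chain, at 0.01, 0.02 and 0.01 against 2.24, 1.92 and 1.85. These had the largest fold changes of the 8, and other markers of the list were well present in LLC alone. Col3a1, a further collagen chain, was at 43.14, 43.62 and 36.77 FPKM against 101.72, 99.4 and 98.96. Pdgfra was at 6.17, 6.41 and 4.77 FPKM against 8.32, 8.24 and 7.82, and Pdgfrb at 7.22, 7.08 and 5.46 against 9.34, 8.45 and 8.47. Thy1, a usual marker of mesenchymal stem cells, was at or under 3 counts in every library.

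Of 7 neutrophil markers, 5 were tested and all 5 were higher, against 31.5% of all tested genes. The list summed to 0.436 to 0.720 CPM in LLC alone and to 17.7 to 20.3 CPM in LLC with BMSCs. S100a8 was at 0, 0.19 and 0.07 FPKM in LLC alone and at 17.71, 21.33 and 21.69 in LLC with BMSCs, and S100a9 at 0, 0.06 and 0 against 20.9, 20.6 and 25.76. S100a8 and S100a9 had the largest fold changes of the 5, and Cxcr2 the smallest (log2 fold change 0.80). Ly6g, a marker that defines neutrophils, was too low to be tested, at 0.1, 0.11 and 0.03 FPKM in LLC alone and 0.08, 0.03 and 0.03 in LLC with BMSCs. Of 8 macrophage markers, 6 were tested, with 5 higher and 1 lower, against 31.5% and 31.3% of all tested genes. The list summed to 9.51 to 11.7 and 18.3 to 18.8 CPM, and C1qa and C1qb were at or under 3 counts in every library. Adgre1 had 0, 0 and 0 counts in LLC alone and 60, 79 and 63 in LLC with BMSCs, and Itgam 0, 0 and 5 against 241, 231 and 240. Cd68, the marker that was lower, was at 5.14, 5.39 and 6.12 FPKM against 3.4, 2.69 and 3.01. The part of these cell types in the levels of Egfr, Nrg1 and the other members was not tested. Markers of keratinocytes, which express Egfr and several ligands in skin, were at or near 0: the 3 of 8 that were listed summed to at most 0.120 CPM in any library.

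Lymphocyte markers summed to 0.283 to 0.480 and 2.40 to 2.67 CPM, and Cd3e, Cd4 and Nkg7 were at or under 3 counts throughout. Only 1 marker of this list was tested, and it was higher, as were 31.5% of all tested genes. It was Ptprc, a marker of leukocytes in general, with 3, 8 and 8 counts in LLC alone and 96, 112 and 103 in LLC with BMSCs. Cd8a, too low to be tested, had 8, 6 and 10 counts against 6, 4 and 5. Of 5 endothelial markers, 2 were tested and neither was past the threshold in edgeR, at an unadjusted p under 0.05 or in DESeq2 (list sums 1.05 to 1.26 against 1.31 to 1.70 CPM). Among those too low to be tested, Cdh5 had 2, 1 and 1 counts in LLC alone and 10, 8 and 14 in LLC with BMSCs. Tek had 8, 3 and 2 against 3, 1 and 0 counts and Kdr 3, 1 and 8 against 6, 5 and 4, both with overlapping groups. The epithelial label of the line rested on Krt8, an epithelial keratin, at 90.3 to 102 FPKM in LLC alone and 108 to 113 in LLC with BMSCs, since Epcam and Cdh1 were at most 0.04 FPKM in every library. Krt18, the keratin that pairs with Krt8, rose from 0.03 to 0.13 FPKM in LLC alone to 0.63 to 0.69 in LLC with BMSCs (log2 fold change 2.91 ± 0.34, adjusted p = 2.2e-04 by edgeR). Of 8 immediate early genes, which also respond to cell handling, 4 were higher and 3 lower, against 31.5% and 31.3% of all tested genes. Their sums were 651 to 767 and 549 to 620 CPM, but single genes moved far in opposite directions. Atf3 averaged 95.1 ± 6.49 FPKM in LLC alone and 10.9 ± 0.265 in LLC with BMSCs, while Egr1 had 2, 0 and 0 counts against 85, 69 and 91. The part of these 8 genes in the members' levels was not tested either.

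Erbb3, the receptor with the weak kinase, was at 3.56, 4 and 2.85 FPKM in LLC alone and at 5.81, 5.88 and 5.82 in LLC with BMSCs. The groups did not overlap, and LLC alone replicate 3 was the lowest library. Mean levels were 3.47 ± 0.580 and 5.84 ± 0.0379 FPKM, with a log2 fold change of 0.71 ± 0.09. With a trend over transcript length removed from each library, the log2 fold change was 0.50 and still past the threshold. Both listed transcripts shared the direction: a 6564-base transcript assembled by the authors' pipeline averaged 2.64 ± 0.182 and 4.27 ± 0.104 FPKM, and NM_010153 (4020 bases) averaged 0.83 ± 0.454 and 1.57 ± 0.13 FPKM. The larger spread of NM_010153 in LLC alone came from replicate 3, at 0.31 FPKM against 1.03 and 1.15.

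Erbb2, the partner receptor without a ligand, was at 4.82, 5.25 and 4.12 FPKM in LLC alone and at 5.81, 5.72 and 5.49 in LLC with BMSCs. The groups did not overlap, but the gap between the highest control and the lowest co-injected library was small. Mean levels were 4.73 ± 0.570 and 5.67 ± 0.165 FPKM and the log2 fold change was 0.24 ± 0.09, below the median size of all tested genes. Libraries differed in how counts depended on transcript length, most in LLC alone replicate 3. The groups lay on opposite sides of the mean of all libraries, a mean that replicate 3 itself shifts. With the trend over length removed from each library, the log2 fold change of Erbb2 was 0.07 and no longer past the threshold. Without LLC alone replicate 3 it was 0.16, still past the threshold, and it was lost without LLC alone replicate 1 (0.26) and without LLC with BMSCs replicate 1 (0.22), replicate 2 (0.24) or replicate 3 (0.27), and with the close libraries of each group summed (0.30).

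Exons of Erbb2 overlap those of Mien1 on the opposite strand, and whether counting used the strand is not given in the sources used here. Mien1 averaged 27.9 ± 4.93 FPKM in LLC alone and 26.5 ± 0.646 in LLC with BMSCs, with overlapping groups (log2 fold change -0.10 ± 0.12, adjusted p = 0.499 by edgeR's quasi-likelihood test). In the same way exons of Ereg, Tgfa and Nrg1 overlap predicted genes on the opposite strand, named Gm19610, Gm43917 and Gm26578, which were not analysed here.

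Within the receptors, the balance moved from Erbb2 towards Erbb3 and Egfr. The FPKM ratio of Erbb3 to Erbb2 was 0.739, 0.762 and 0.692 in LLC alone and 1, 1.03 and 1.06 in LLC with BMSCs, without overlap. The summed receptor level was 8.25 ± 1.16 FPKM in LLC alone and 12.1 ± 0.254 in LLC with BMSCs. Of this sum Erbb2 took 57.5% ± 1.23 and 47.0% ± 0.524, Erbb3 42.0% ± 1.18 and 48.4% ± 0.942, and Egfr 0.563% ± 0.230 and 4.66% ± 0.60. Egfr thus stayed the rarest of the receptors in both groups, and in LLC with BMSCs the ranges of Erbb3 and Erbb2 overlapped.

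**Figure D2:**
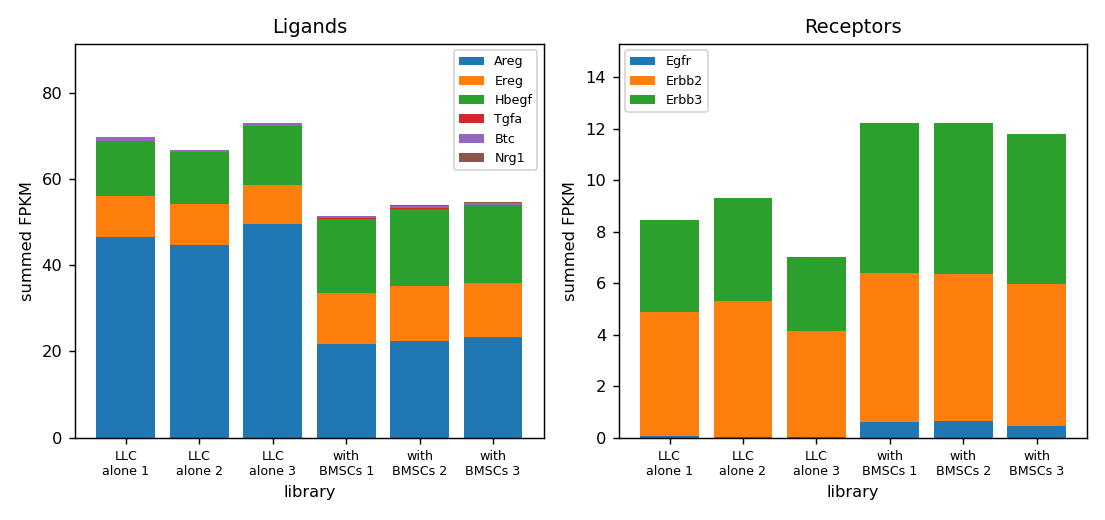
Stacked bars of the summed FPKM of the 6 ligands (left) and the 3 receptors (right) in each library, coloured by gene. The ligand sum is 69.9 FPKM on average in LLC alone and 53.3 in LLC with BMSCs, where the Areg part is smaller, while the receptor sum is 8.25 against 12.1.

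Areg (amphiregulin), a ligand of Egfr, was the most abundant member in every library. It was at 46.64, 44.57 and 49.63 FPKM in LLC alone and at 21.65, 22.39 and 23.27 in LLC with BMSCs. The groups did not overlap, and the gap between them was wider than the range within either. Mean levels were 46.9 ± 2.54 and 22.4 ± 0.811 FPKM, and the log2 fold change was -1.09 ± 0.06; 6.42% of tested genes had a log2 fold change at or below that. With the trend over transcript length removed it was -0.83; the single Areg transcript is 1215 bases long, the shortest of the members' listed transcripts. Areg lay between the 89.4 and 90.0 percentiles of listed genes in LLC alone and between 78.9 and 80.1 in LLC with BMSCs.

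Ereg (epiregulin), which binds Egfr and Erbb4, was at 9.46, 9.68 and 8.95 FPKM in LLC alone and at 11.9, 12.77 and 12.62 in LLC with BMSCs. All libraries of LLC with BMSCs were above all of LLC alone, with means of 9.36 ± 0.374 and 12.4 ± 0.465 FPKM and a log2 fold change of 0.39 ± 0.06. With the length trend removed, the log2 fold change of Ereg was 0.29 and still past the threshold. Hbegf (heparin-binding EGF-like growth factor), a ligand of the same receptors, was at 12.75, 11.92 and 13.7 FPKM against 17.27, 17.97 and 18.08. It had means of 12.8 ± 0.891 and 17.8 ± 0.439 FPKM and a log2 fold change of 0.45 ± 0.07, and its groups did not overlap.

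Btc (betacellulin), another ligand of Egfr and Erbb4, was at 0.89, 0.63 and 0.73 FPKM in LLC alone and at 0.5, 0.6 and 0.52 in LLC with BMSCs. The groups did not overlap, but LLC alone replicate 2 and LLC with BMSCs replicate 2 lay next to each other, and the libraries held 59 to 116 counts. The log2 fold change was -0.51 ± 0.17. It was no longer past the threshold with DESeq2 (-0.51), without LLC alone replicate 1 (-0.37) and without LLC with BMSCs replicate 1 (-0.46) or replicate 3 (-0.49).

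**Figure D3:**
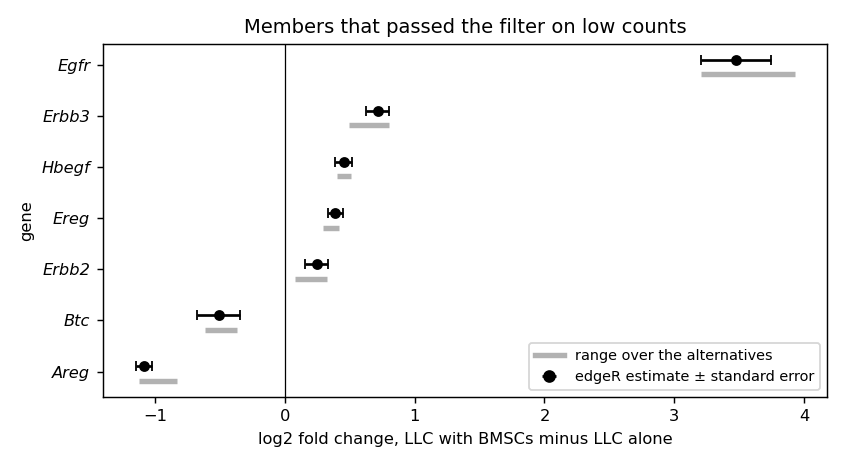
Log2 fold change (LLC with BMSCs minus LLC alone) of the 7 members that passed the filter on low counts; points with bars are the edgeR estimate ± SE and grey bars the range over the alternatives in which the gene was tested. Egfr is at 3.48, Areg at -1.09, and the grey bar of Erbb2 reaches down to 0.07.

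Areg, Ereg and Btc lie side by side on mouse chromosome 5. By RefSeq order on GRCm38.p6 the protein-coding genes there run Mthfd2l, Epgn, Ereg, Areg, Btc and Parm1, so that Ereg, which was higher in LLC with BMSCs, sits between Epgn and Areg, which was lower. The ratio of Areg to Ereg was 4.93, 4.60 and 5.55 in LLC alone and 1.82, 1.75 and 1.84 in LLC with BMSCs. The ratio of Areg to Hbegf was 3.66, 3.74 and 3.62 against 1.25, 1.25 and 1.29. Both ratios were lower in every library of LLC with BMSCs, whereas the ratio of Hbegf to Ereg averaged 1.37 ± 0.151 and 1.43 ± 0.0221, a difference within the spread of LLC alone.

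The 6 ligands summed to 69.9 ± 3.12 FPKM in LLC alone and to 53.3 ± 1.66 in LLC with BMSCs. Areg made up 67.2% ± 0.679 of that sum in LLC alone and 42.1% ± 0.516 in LLC with BMSCs. Hbegf took 18.3% ± 0.458 and 33.3% ± 0.236, and Ereg 13.4% ± 1.12 and 23.3% ± 0.341. Btc stayed near 1% in both (1.07% ± 0.178 and 1.01% ± 0.0883).

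Tgfa (transforming growth factor alpha), a ligand of Egfr, was barely detected, at 0.03, 0.02 and 0.04 FPKM in LLC alone and at 0.07, 0.07 and 0.04 in LLC with BMSCs. The groups met at 0.04 FPKM. Summed over the libraries it had 17 and 34 counts, a ratio of 1.90 after scaling for depth (95% exact interval 1.03 to 3.63, counting error only).

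Nrg1 (neuregulin 1), a ligand of Erbb3 and Erbb4, had 1, 0 and 0 counts in LLC alone and 7, 8 and 11 in LLC with BMSCs, or 0.01, 0 and 0 against 0.08, 0.09 and 0.12 FPKM. All LLC with BMSCs libraries were above the 3 counts (0.0650 to 0.0896 CPM, here by library totals without TMM) that a count of 0 allows, and no LLC alone library was. The ratio of the summed 26 and 1 counts was 24.7, with a 95% exact interval of 4.06 to 1012.52 for counting error only. Such an interval says little about its size, and the level was very low in both groups.

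In LLC alone the order of levels per length was Areg, Hbegf, Ereg, Erbb2, Erbb3, Btc, Egfr, Tgfa and Nrg1, and all neighbours in it had separate ranges over the 3 libraries except Egfr and Tgfa. In LLC with BMSCs it was Areg, Hbegf, Ereg, Erbb3, Erbb2, Egfr, Btc, Nrg1 and Tgfa, where Erbb3 and Erbb2 overlapped, as did Egfr and Btc. The 3 ligands at the top were the same in both groups, and each was above every receptor. Hbegf came closer to Areg, lying between the 68.4 and 71.7 percentiles of listed genes in LLC alone and between 74.7 and 75.6 in LLC with BMSCs.

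The rest of the pathway was followed in a list of 56 other genes, of which 54 were listed and 51 tested. In LLC with BMSCs 19 of the 51 were higher and 10 lower at an adjusted p under 0.05, and 22 were not past it; this is 56.9% past the threshold, against 62.9% of all tested genes, and the median log2 fold change was 0.13. The numbers higher and lower were 21 and 19 with the length trend removed, 17 and 14 with upper-quartile scaling, and 24 and 18 without LLC alone replicate 3. Adjusted p-values below are from edgeR's quasi-likelihood test over all tested genes. The list was chosen with earlier results of these data known, and most genes named from it were picked because they were past the threshold. Its counts and p-values are therefore a description and support nothing about the pathway.

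Of the other ligands, Nrg4, a ligand of Erbb4, rose from 0.15 ± 0.0173 to 0.46 ± 0.0625 FPKM (log2 fold change 1.61 ± 0.22, adjusted p = 4.3e-04), from estimated counts that were not whole. Egf averaged 0.687 ± 0.0808 and 0.543 ± 0.0493 FPKM (-0.36 ± 0.14, adjusted p = 0.0557). Nrg2 averaged 0.307 ± 0.0306 and 0.313 ± 0.10 FPKM (adjusted p = 0.964). Epgn (epigen), the neighbour of Ereg, was too low to be tested, at 0.09, 0.09 and 0.07 FPKM against 0.14, 0.14 and 0.17. Erbb4 and Nrg3 were not analysed here.

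All 5 genes of ligand processing, chosen with earlier results of these data known, rose, against 31.5% of all tested genes. Adam17, the protease that releases Areg, Ereg, Hbegf and Tgfa from the membrane, rose from 36.7 ± 2.88 to 56.5 ± 0.512 FPKM (log2 fold change 0.60 ± 0.07, adjusted p = 1.78e-04). Rhbdf1, which helps Adam17 mature, rose from 10.6 ± 0.0872 to 20.03 ± 0.756 FPKM (0.90 ± 0.06, adjusted p = 9.03e-06), and Furin, which cuts the pro-form of such proteases, from 19.3 ± 1.86 to 26.7 ± 0.705 FPKM (0.44 ± 0.08, adjusted p = 0.00172). Adam10, another protease that releases ligands, and Rhbdf2, which is related to Rhbdf1, rose by 0.27 and 0.23 on the log2 scale. Adam10 was no longer past the threshold without LLC with BMSCs replicate 1 (0.29), replicate 2 (0.27) or replicate 3 (0.26), nor was Rhbdf2 without LLC with BMSCs replicate 1 (0.20) or replicate 3 (0.24), so that at least 3 of the 5 stayed past it whichever library was left out. With the length trend removed, the log2 fold change of Adam10 was 0.14 and still past the threshold.

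Of 11 adaptors, 5 rose and 2 fell, or 63.6% past the threshold against 62.9% of all tested genes. Grb2, which links a phosphorylated receptor to Ras activation, rose from 28.1 ± 0.623 to 44.5 ± 2.08 FPKM (0.63 ± 0.06, adjusted p = 7.04e-05), and Sos1, the exchange factor it carries, from 6.88 ± 1.12 to 11.1 ± 0.438 FPKM (0.67 ± 0.12, adjusted p = 0.00142); with the length trend removed, the log2 fold change of Sos1 was 0.35 and still past the threshold. Gab1, a docking protein that recruits PI3K, fell from 52.2 ± 5.34 to 33.5 ± 0.769 FPKM (-0.66 ± 0.08, adjusted p = 2.57e-04).

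Of 15 genes in the kinase cascades, 4 rose and 4 fell, or 53.3% past the threshold, below the 62.9% of all tested genes. Map2k1, a kinase of the Ras-MAPK route, rose from 36.5 ± 1.83 to 83.2 ± 3.82 FPKM (1.17 ± 0.07, adjusted p = 5.42e-06). Of the Raf kinases above it, Braf rose from 6.59 ± 1.25 to 9.63 ± 0.145 FPKM (0.58 ± 0.14, adjusted p = 0.00729) and Araf fell from 36.2 ± 2.04 to 23.2 ± 0.893 FPKM (-0.58 ± 0.06, adjusted p = 1.19e-04). With the length trend removed the log2 fold change of Braf was 0.21, the lowest over its alternatives, and still past the threshold.

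Of 13 tested negative regulators, 4 were higher and 4 lower, or 61.5% past the threshold, close to the 62.9% of all tested genes (31.5% higher and 31.3% lower). Errfi1, which binds and inhibits the Egfr kinase, rose from 14.0 ± 0.553 to 24.7 ± 0.680 FPKM (0.80 ± 0.06, adjusted p = 2.05e-05), and Cblb, a ubiquitin ligase that marks receptors for degradation, from 3.84 ± 0.330 to 8.16 ± 0.231 FPKM (1.07 ± 0.07, adjusted p = 1.31e-05). Spry2, a feedback inhibitor of Ras signalling, fell from 16.7 ± 0.958 to 10.9 ± 0.0917 FPKM (-0.63 ± 0.06, adjusted p = 7.81e-05). None of the 4 genes of receptor trafficking (Eps15, Hgs, Stam2 and Usp8) was past the threshold in edgeR, while 2 had an unadjusted p under 0.05 and 1 was past the threshold in DESeq2 and 1 in limma with either pseudocount.

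**Figure D4:**
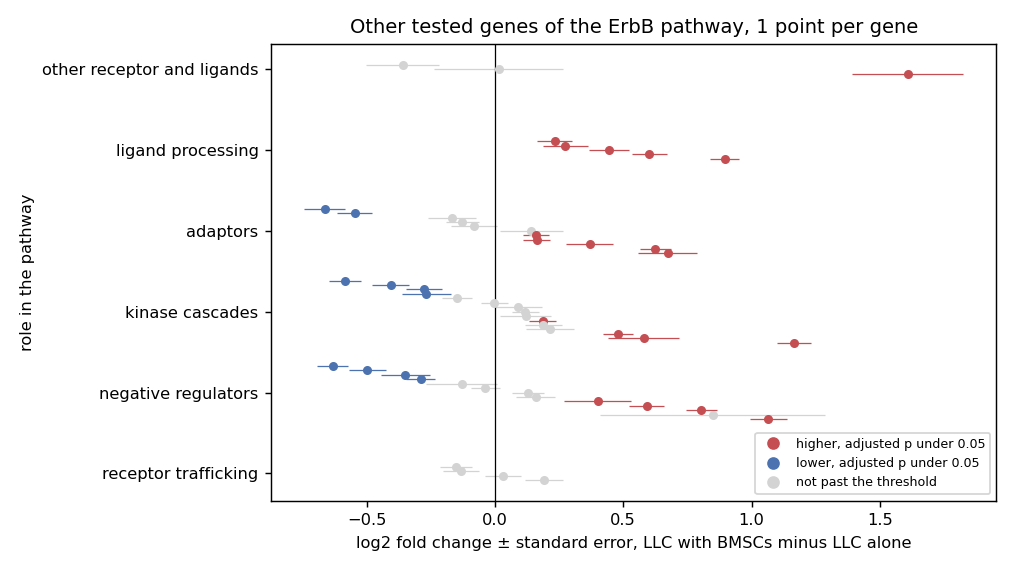
Log2 fold change ± SE of the 51 tested genes of the pathway list, 1 point per gene, by role; red points are higher and blue points lower in LLC with BMSCs at an adjusted p under 0.05, and grey points are not past it. All 5 points of ligand processing lie to the right of 0, and those of the cascades and negative regulators lie on both sides.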

How the data were processed

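RNA was extracted from sorted LLC cells with TRIzol, and poly-A-selected libraries were sequenced by the study as paired-end reads on the BGISEQ-500; the labels name Illumina protocols instead. The authors deposited, per gene and per transcript, expected counts (estimated counts, not normalized and not always whole), a length in bases, and FPKM values that they had scaled by length and library total. The submitters' processing notes name HISAT, StringTie, Cufflinks, GATK and the build mm8; which program made the counts, and whether it used the strand, is not given in the sources used here. Gene counts summed to 33476347 to 46189113 per library, and 21.9% to 23.2% of genes had a count that was not whole; all counts of the 9 members were whole. Reads shared between near-identical genes are divided in such counts.

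Expected counts were rounded and fitted across all genes with edgeR 4.0.16 in R 4.3.3 (TMM, default filter on low counts, quasi-likelihood test, Benjamini-Hochberg adjustment, threshold 0.05); the SE was obtained by dividing the size of the log2 fold change by the root of the F statistic. The biological coefficient of variation was 9.92%. The floor was 3 counts, and intervals cover counting error only. Shares and ratios were taken from FPKM without a test. Groups and replicate numbers came from the sample titles. Alternatives used DESeq2 1.42.0, limma 3.58.1 on log2(FPKM + 1) and log2(FPKM + 0.1), library totals without TMM, upper-quartile scaling, no filter, at least 10 counts in every library, a replicate block, a length trend removed per library, close libraries summed, and each library left out. The fit was tested on simulated data.

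By a chi-square of their counts, averaged over genes, the closest pairs were replicates 1 and 2 of LLC alone (4.79) and replicates 2 and 3 of LLC with BMSCs (3.03), against 19.1 to 60.4 in other pairs within a group; they were kept apart as labelled. Against the mean of all libraries, genes in the fifth of shortest length deviated by a median of 0.04 to 0.31 (log2) in LLC alone and of -0.19 to -0.09 in LLC with BMSCs, and those in the fifth of longest length by -0.37 to -0.0033 and 0.10 to 0.18; replicate 3 of LLC alone deviated most. The trend over length thus runs with the groups.

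The members and lists were chosen with earlier results of these data known. From the pathway list, every gene of the other receptor and ligands was named and, in each further role, up to 3 genes of the largest log2 fold change, regardless of sign, among those past the threshold with a mean of at least 1 FPKM in either group; further names were chosen after their values were seen. Some genes of the lists are not reported here by name. Sequences came from GENCODE M21 and RefSeq (GRCm38.p6), matched by transcript or symbol; the deposited files were not read by coordinate, since their build differs.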

Additional observations from a re-analysis of the deposited data

How the results depend on the processing

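The 7 tested members kept their direction under every alternative in which they were tested. Members higher numbered 6 in place of 5 with DESeq2 and with no filter on low counts, where Nrg1 was added, and 4 where Egfr was not tested (at least 10 counts in every library, and limma on either pseudocount) or where Erbb2 was lost (length trend removed, close libraries summed). Members lower numbered 1 in place of 2 with DESeq2, where Btc was lost, and with limma on either pseudocount, where Btc was not tested. When each library was left out in turn, members higher ranged from 4 to 5, members lower from 1 to 2, pathway genes higher from 13 to 24 and pathway genes lower from 8 to 18, the 18 being without LLC alone replicate 3. Pathway genes lower numbered 19 in place of 10 with the length trend removed and 6 with close libraries summed; fewer samples enter the latter. With TMM-scaled counts over length in place of FPKM, the share of Areg was 66.3% in LLC alone and 41.2% in LLC with BMSCs, and in the latter Ereg took 23.9% and Hbegf 33.7%. With only members of at least 10 counts in every library, which leaves out Egfr, Erbb2 took 49.3% and Erbb3 50.7% of the receptor sum in LLC with BMSCs. Egf came past the threshold with upper-quartile scaling (log2 fold change -0.39), with the length trend removed (-0.40) and without LLC alone replicate 3 (-0.45). Adam10 (0.31) and Rhbdf2 (0.27) were, like Erbb2 (0.30), lost with close libraries summed. The cause of these changes was not tested, beyond what the construction of an alternative shows.

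Same-numbered libraries of the groups did not deviate together (correlations of -0.11 to 0.08, against -0.16 to 0.15 over all pairs). With deviations from the mean of only 3 libraries per group, this cannot show whether the replicate numbers pair the samples. With the replicate number as a block, members higher numbered 5 and members lower 1, because Btc (log2 fold change -0.50) was lost; pathway genes higher numbered 17 and lower 10, and Cbl came past the threshold (1.05, adjusted p = 0.0339 by edgeR). Depth limited Egfr in LLC alone, Tgfa and Nrg1, which rest on few counts.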

Other observations

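Cbl, a ubiquitin ligase that marks Egfr for degradation, was named after its values were seen. It was at 7.48, 7.02 and 1.74 FPKM in LLC alone replicates 1 to 3 and at 10.53, 9.59 and 9.39 FPKM in LLC with BMSCs (log2 fold change 0.85 ± 0.44, adjusted p = 0.126 by edgeR), so that LLC alone replicate 3 stood apart from the other LLC alone libraries. Without that library the log2 fold change was 0.42, with an adjusted p of 3.53e-04 by edgeR; over all alternatives the adjusted p ranged from 3.53e-04 to 0.254.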
